A study of Homo sapiens with 6 samples.

Results

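EPB41L4B, SORCS2, CLIC4, RNF157, S100P, EEF2K, CNOT11 and PCNP are 8 genes whose RNA was much lower in Huh7 cells carrying a short hairpin RNA (shRNA) against ABL1 than in Huh7 cells carrying a scrambled shRNA. They are 8 of the 9717 genes in the deposited table and fill 9 of its 10191 rows, each row being a single RefSeq transcript. They were picked from these same values, as large falls of abundant transcripts outside the signalling pathways usually followed in such cells, so their differences between the groups are given as a description, with no test. Huh7 is an established human hepatocellular carcinoma line, and ABL1 encodes a non-receptor tyrosine kinase.

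RNA sequencing was done on total RNA from 6 libraries, 3 from cells with the ABL1 shRNA (the knockdown libraries) and 3 from cells with the scrambled shRNA. Both groups carried a hairpin, had gone through puromycin selection and were sampled 1 week later, so the drug and the time since selection were common to them. Nothing in the labels states that replicates of a group were grown separately, so a p-value here reflects the spread among the libraries alone, and part or all of that spread may be technical. For the hairpin, neither its sequence nor the number used, nor whether the cells were clones, is stated in the sources used here.

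The knockdown libraries held 7952645, 6651413 and 7483809 counted reads and the scrambled libraries 10487862, 7713451 and 9137608. A normalized count below is a library's read count multiplied by the authors' scale factor for that library, and 8600 transcripts with a mean of at least 10 were tested. Summed over its 2 transcripts, ABL1 had 31.6 ± 2.34 normalized counts in knockdown and 80.9 ± 2.14 in scrambled libraries (SD, n = 3 each). NM_007313 made up the fall, with 11.1 ± 2.33 against 72.1 ± 1.09 (log2 change -2.62, limma adjusted p = 4.11e-06). NM_005157 rose, with 20.5 ± 3.75 against 8.74 ± 1.84 (1.15, adjusted p = 0.0180), and rested on 6 to 24 reads per library. Of 8 hepatocyte markers 5 were in the table, none at 0, and their summed normalized counts ran from 314919 to 355342 in knockdown and from 347701 to 400868 in scrambled libraries. Of the markers of other cell types, 6 of 8 fibroblast markers summed to 13259 to 14609 in knockdown against 8912 to 9908 in scrambled libraries, 4 of 6 endothelial markers to 125 to 147 against 176 to 204, and 3 of 7 immune markers to 6544 to 7489 against 5714 to 6331. The fibroblast sum is mostly COL1A2 (log2 change 0.62), in a list where PDGFRA (1.84), LUM (2.11) and COL3A1 (1.54) also rose and COL1A1 fell (-1.03). The immune sum is mostly LYZ (0.21, higher), while LAPTM5 (-2.39) and FCER1G (-0.79) fell. In the endothelial list VWF rose (1.08), and CDH5 (-1.14), PECAM1 (-0.59) and STAB2 (-1.03) fell. The hepatocyte sum is mostly AFP (-0.10, not called), in a list where ALB (-0.42) and APOB (-0.20) fell and TTR (0.19) was not called. None of these markers was at 0, and their part in the results was not tested.

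The 8 proteins work in separate parts of the cell. EPB41L4B, of the band 4.1 family, joins membrane proteins to actin through its FERM domain and acts at epithelial junctions. SORCS2 is a sorting receptor of the VPS10 family that binds pro-neurotrophins in neurons. CLIC4, of the chloride intracellular channel family, exists in soluble and membrane forms and enters the nucleus of cells treated with TGF-beta. S100P is a small calcium-binding protein that is found in many carcinomas and can be secreted to act on the receptor AGER. EEF2K is a calcium-dependent kinase that phosphorylates the elongation factor EEF2 and thereby slows translation, CNOT11 is a subunit of the CCR4-NOT complex that shortens poly(A) tails, and RNF157 and PCNP belong to the ubiquitin system, RNF157 as a RING-type E3 ligase and PCNP as a nuclear protein that is a substrate of the ligase UHRF2.

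A hairpin RNA is cut in the cell to a short guide, which leads Argonaute proteins to RNAs that it can pair with. A guide made for one transcript can also act on others with which it shares sequence. Since the guide sequence was not known, the members were compared with ABL1 itself. The longest stretch of identical bases between each member transcript and either ABL1 transcript, both read in the sense direction, was 16 bases for PCNP, 14 for RNF157, EEF2K and CNOT11, 13 for SORCS2 and for the main EPB41L4B transcript, 12 for CLIC4 and 11 for S100P. Over 8136 tested transcripts the median was 12 bases (middle range 12 to 13) and the longest 22. A run of at least 16 bases was found in 2.74% of them, one of at least 14 in 21.4%, one of at least 13 in 50%, one of at least 12 in 83.3% and one of at least 11 in 97.7%. No member shared 19 bases or more with ABL1, and 8 of the 8136 transcripts did. The windows below, of 30 bases each and taken from GENCODE 29 transcripts (GRCh38), are those of PCNP, which has the longest run, and of CNOT11 and RNF157, and the run shared with ABL1 is in capitals.
PCNP: tttttttTCTTTTTCATTTTTTTaaaagat
CNOT11: atttcctgTGGGGTCTGCACCCtcctgtct
RNF157: tgtctgacAGCAGCAGTCAGGGactcaaac
The runs of PCNP and CNOT11 lay in the 3′ UTR and that of RNF157 before it. That of S100P, at bases 13 to 23, lay upstream of the RefSeq start, since its GENCODE model begins 809 bases before that start. In PCNP the capitals are mostly T. These are matches of letters, and whether a guide acted on any member was not tested. A match to the seed alone, a stretch of 8 bases of the guide, could not be searched without the guide sequence.

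In position the members were scattered over 7 chromosomes, with S100P and SORCS2 both on chromosome 4. In GRCh38 (GENCODE 29) EPB41L4B NM_018424 lies at chr9:109239731-109320964 on the minus strand with 16 exons, and SORCS2 NM_020777 at chr4:7192538-7742827 on the plus strand with 27 exons. CLIC4 NM_013943 lies at chr1:24745357-24844324 (plus, 6 exons), RNF157 NM_052916 at chr17:76142453-76240373 (minus, 19 exons) and S100P NM_005980 at chr4:6693069-6697169 (plus, 2 exons). EEF2K NM_013302 lies at chr16:22206282-22288732 (plus, 18 exons), CNOT11 NM_017546 at chr2:101252802-101270316 (plus, 7 exons) and PCNP NM_020357 at chr3:101574095-101594437 (plus, 5 exons). The median length of the member transcripts was 4176 bases, against 2922 over all tested transcripts with a GENCODE match, and 5 of 8 were above that median. Their 3′ UTRs had a median of 2247 bases against 1056, and 6 of 8 were above that median, from 1684 bases in PCNP to 4736 in EEF2K. S100P (127 bases) and CNOT11 (903 bases) were below it.

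Promoter windows, 250 bases before to 50 after the start, were available from RefSeq (GRCh38.p14) for 6 members, and those of S100P, EEF2K, PCNP and RNF157 are shown because they differ most in what they hold. They run 5′ to 3′ on the gene's strand, and capitals mark every match, on either strand, to the 7 motifs searched: the E-box CACGTG, the AP-1 motif TGANTCA, the TEAD motif GGAATG, the RBPJ motif TGGGAA, the TATA box TATAAA, the CCAAT box CCAAT and the GC box GGGCGG. Matches of different motifs did not overlap in the member windows.
S100P promoter: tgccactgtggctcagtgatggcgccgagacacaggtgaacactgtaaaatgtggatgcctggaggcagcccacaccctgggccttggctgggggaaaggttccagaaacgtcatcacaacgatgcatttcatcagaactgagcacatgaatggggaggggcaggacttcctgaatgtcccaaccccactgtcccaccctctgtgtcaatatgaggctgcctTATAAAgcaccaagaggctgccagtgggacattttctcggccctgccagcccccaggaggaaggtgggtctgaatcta
EEF2K promoter: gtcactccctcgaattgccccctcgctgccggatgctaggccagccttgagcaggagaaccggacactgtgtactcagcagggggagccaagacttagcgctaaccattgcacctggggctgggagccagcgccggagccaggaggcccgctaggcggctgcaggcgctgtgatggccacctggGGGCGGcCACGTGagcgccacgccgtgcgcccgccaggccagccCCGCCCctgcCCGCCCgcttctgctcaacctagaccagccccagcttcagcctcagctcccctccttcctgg
PCNP promoter: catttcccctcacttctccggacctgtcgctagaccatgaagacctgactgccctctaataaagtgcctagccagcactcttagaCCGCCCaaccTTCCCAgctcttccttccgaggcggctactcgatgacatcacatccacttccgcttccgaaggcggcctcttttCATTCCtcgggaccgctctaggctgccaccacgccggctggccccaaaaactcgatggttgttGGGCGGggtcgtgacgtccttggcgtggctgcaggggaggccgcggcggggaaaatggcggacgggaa
RNF157 promoter: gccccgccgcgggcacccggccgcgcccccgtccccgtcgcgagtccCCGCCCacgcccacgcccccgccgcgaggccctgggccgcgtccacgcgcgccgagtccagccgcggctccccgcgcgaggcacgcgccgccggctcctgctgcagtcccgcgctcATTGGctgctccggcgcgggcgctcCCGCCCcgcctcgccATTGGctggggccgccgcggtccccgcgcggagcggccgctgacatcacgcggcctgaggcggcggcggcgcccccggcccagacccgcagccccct
These windows are chr4:6693628-6693927 (plus), chr16:22206028-22206327 (plus), chr3:101573930-101574229 (plus) and chr17:76240444-76240743 (minus), in the order shown. S100P alone held a TATA box, 28 bases before its RefSeq start, and no GC box. That start lies 809 bases downstream of the GENCODE start given above, so the S100P window lies inside the span stated for the gene. Its window had 56% G and C and 5 CpG, against medians of 65.7% and 26 over the 6104 promoters of tested genes. A TATA box was present in 12% of all 27305 promoters and in 6.31% of those of tested genes. The other 5 windows, CLIC4, RNF157, EEF2K, CNOT11 and PCNP, held a GC box, which 44.6% of all promoters and 69.6% of those of tested genes have. EEF2K had the E-box (7.43% of all promoters, 10.5% of those of tested genes), 59 bases before its start. PCNP had the TEAD (14% of all) and RBPJ (24.3% of all) motifs, and RNF157 and CNOT11 the CCAAT box (35.7% of all). The AP-1 motif, in 7.76% of all promoters, was in none of the 6 windows. No motif of the 7 was thus common to the 6 windows, and the matches describe the letters only.

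EPB41L4B had the largest fall of the 8. Its main transcript had normalized counts of 58.7, 55.4 and 54.7 in knockdown and 482, 489.8 and 532 in scrambled libraries. The knockdown libraries lay within a few counts of one another and far below every scrambled library. The means were 56.3 ± 2.14 against 501 ± 26.9 (SD, n = 3 each), or 11.2% of the scrambled level, and the log2 change was -3.13 (SE 0.12). A second EPB41L4B row, NM_019114, a longer transcript of 26 exons with the same start, rested on 8, 5 and 4 reads in knockdown and 24, 16 and 11 in scrambled libraries. Its log2 change was -1.30 (SE 0.44). It was low in all 6 libraries, with 36.5% of the scrambled level in the knockdown group, and the sources do not state how reads of exons common to both transcripts were assigned.

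SORCS2 was the member with the fewest reads per kilobase of transcript. Its normalized counts were 59.7, 46.3 and 46.4 in knockdown and 381, 347 and 365 in scrambled libraries. Knockdown replicate 1 stood above the other two, which gave SORCS2 the widest spread relative to the mean of any member in the knockdown group (15.1%), and the groups did not overlap. The means were 50.8 ± 7.67 against 364 ± 16.8, which is 13.9% of the scrambled level and a log2 change of -2.83 (SE 0.15).

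CLIC4 was abundant, at the 87.8th percentile of mean level. It had 419.6, 433 and 403 normalized counts in knockdown and 2871, 2600.3 and 3138 in scrambled libraries. The 3 knockdown libraries were close together, and the scrambled ones were spread more widely in counts. The means were 419 ± 14.8 against 2869.7 ± 269, or 14.6% of the scrambled level (log2 change -2.77, SE 0.09). GENCODE 29 names 3 pseudogenes of CLIC4 (CLIC4P1, CLIC4P2 and CLIC4P3) on other chromosomes, and the treatment of reads that match several places is not stated.

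Relative to its mean, S100P varied least of the members among the knockdown libraries (SD 1.87% of the mean). Its normalized counts were 588, 567 and 584 in knockdown and 2995, 3077 and 2781 in scrambled libraries. The 3 knockdown values were nearly equal, and each was far below every scrambled value. The means were 579.7 ± 10.9 against 2951 ± 153, which is 19.6% of the scrambled level (log2 change -2.34, SE 0.08).

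EEF2K, the kinase of EEF2, had normalized counts of 235, 224 and 215 in knockdown and 1079, 1154 and 1165 in scrambled libraries. The groups were separated by a wide gap and each varied little. The means were 224 ± 10.1 against 1133 ± 47.1, or 19.8% of the scrambled level (log2 change -2.33, SE 0.09).

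CNOT11 had the most reads of the 8, at the 97.2th percentile of mean level. Its normalized counts were 1949, 1651 and 1645.5 in knockdown and 9158, 7289.7 and 8674 in scrambled libraries. Knockdown replicate 1 was the highest of its group and scrambled replicate 2 the lowest of its own, yet the groups stayed far apart. The means were 1748 ± 173 against 8374 ± 969.5, which is 20.9% of the scrambled level (log2 change -2.26, SE 0.10).

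RNF157, the E3 ligase, had normalized counts of 153, 140.2 and 143 in knockdown and 913, 824 and 800.3 in scrambled libraries. The knockdown libraries were nearly level. The means were 145 ± 6.45 against 846 ± 59.4, or 17.2% of the scrambled level (log2 change -2.53, SE 0.10). RNF157-AS1, a transcript of the opposite strand that shares 285 exon bases with RNF157, had 8.80, 9.04 and 5.16 normalized counts in knockdown and 15.0, 13.4 and 15.95 in scrambled libraries. Its log2 change of -0.90 (SE 0.40) did not pass (limma adjusted p = 0.0767), though it did with quantile normalization (-1.02, adjusted p = 0.0496). The counting's strand setting is not stated, and reads of RNF157 and RNF157-AS1 in the shared bases cannot be told apart.

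PCNP was the most even member in the scrambled group. Its normalized counts were 694, 706 and 581 in knockdown and 3123, 3099 and 3137.5 in scrambled libraries. Knockdown replicate 3 stood below the other two, and the scrambled libraries were almost equal. The means were 660.3 ± 69.1 against 3119.9 ± 19.5, or 21.2% of the scrambled level (log2 change -2.24, SE 0.09). The table holds 1 of the 17 RefSeq transcripts of PCNP, and GENCODE 29 names 5 pseudogenes of PCNP (PCNPP1 to PCNPP5). The PCNP level is thus that of the row, not of the gene.

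**Figure D1:**
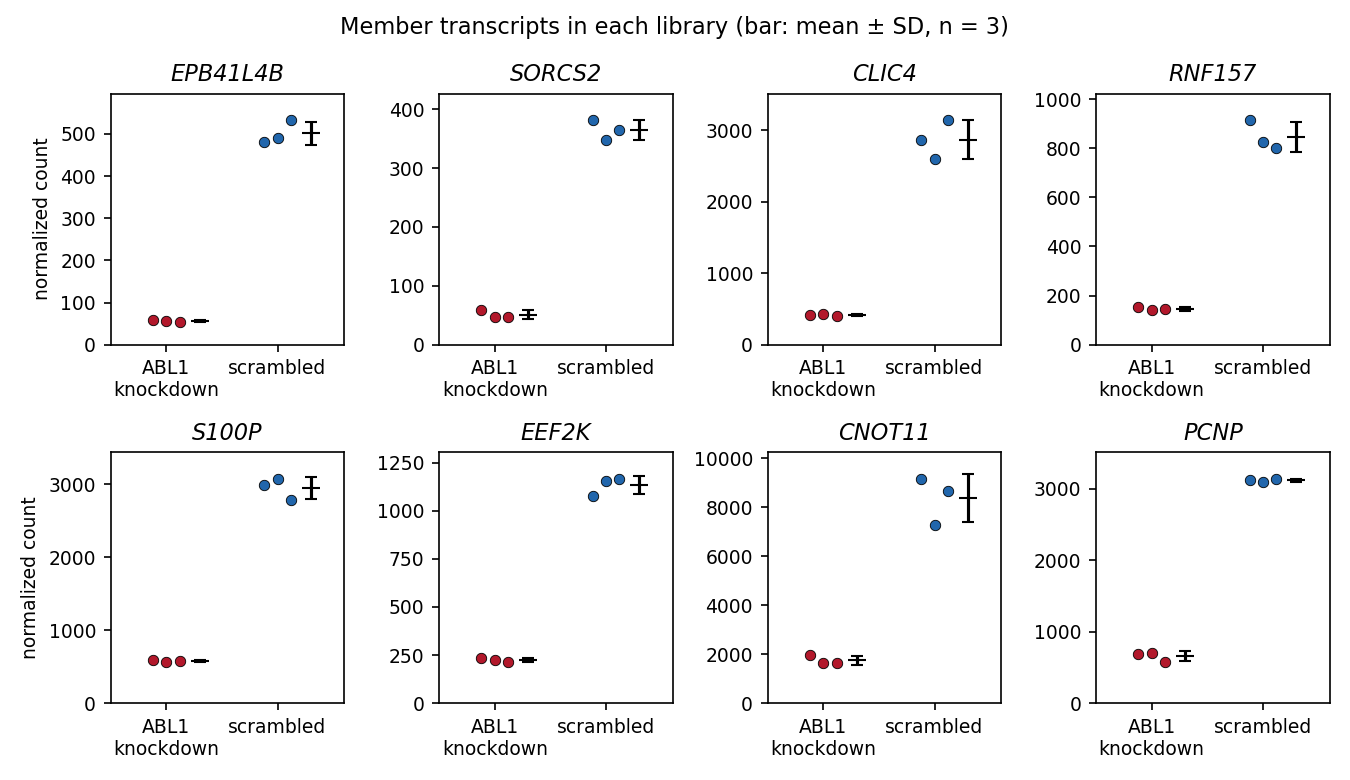
Normalized counts (linear axis) of the 8 members in each library, with the 3 ABL1 knockdown libraries left of the 3 scrambled libraries in each panel. Points are libraries, and the bar beside them is the group mean ± SD (n = 3). Every knockdown point lies below every scrambled point, with group means of 56.3 against 501 for EPB41L4B and 660.3 against 3119.9 for PCNP.

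Across the 8 genes the knockdown level was 11.2% to 21.2% of the scrambled level (median 18.4%), and log2 changes ran from -3.13 to -2.24. In each of the 8, every knockdown library was below every scrambled library, as the choice of the members required, and the same held for 30.7% of the 8600 tested transcripts. All 8 were at or above the 51.2th percentile of mean level. Because this is bulk RNA, fewer cells with a transcript and less of it per cell cannot be told apart. The median log2 change over all tested transcripts was 0.0018, with the middle range of transcripts between -0.44 and 0.43.

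**Figure D2:**
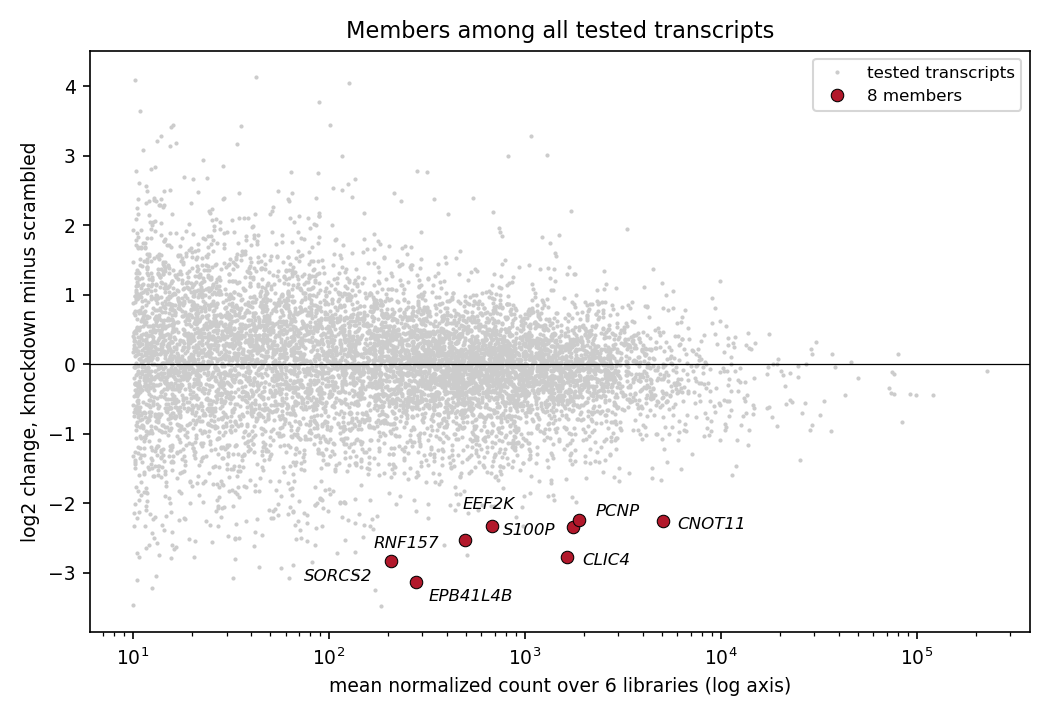
Log2 change (knockdown minus scrambled) against mean normalized count over the 6 libraries (log axis) for the 8600 tested transcripts in grey and the 8 members in red. The members lie between -3.13 and -2.24, along the lower edge of the cloud at their level.

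The choice followed the size of the fall among abundant called transcripts with a symbol and groups that did not overlap. In that ranking of 1519 transcripts the members were numbers 1, 2, 4, 7, 8, 10, 11 and 12. CTGF (-2.80), ORM2 (-2.74), FOXQ1 (-2.60) and ORM1 (-2.33) stood between them and were left to other gene groups. PCNP at -2.24 was the last member, and HSD17B2 (-2.21, 113 ± 16.7 against 525 ± 58.8 normalized counts), B4GALNT4 (-2.19) and MYO1D (-2.14) came next. Whether these were left out for the size of their fall or left to other gene groups is not stated. The step from PCNP to HSD17B2 was smaller than the SE of either.

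Per kilobase of transcript, the scrambled level ran from 59.2 normalized counts for SORCS2, through 125 for EPB41L4B, 153 for EEF2K, 171 for RNF157, 660 for CLIC4, 1332 for PCNP and 2307 for S100P, to 3222 for CNOT11. The knockdown levels per kilobase kept nearly the same order: 8.26 for SORCS2, 14.04 for EPB41L4B, 29.3 for RNF157, 30.4 for EEF2K, 96.3 for CLIC4, 282 for PCNP, 453 for S100P and 673 for CNOT11. RNF157 and EEF2K changed places, and they were neighbours in both orders. The GENCODE model of S100P begins 809 bases upstream of the RefSeq start, so its level per kilobase would be higher on a model that began at the RefSeq start.

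In the median, the members varied less within a group than other abundant transcripts. Their coefficient of variation (SD over mean) was 1.87% to 15.1% in knockdown libraries (median 4.47%) and 0.624% to 11.6% in scrambled libraries (median 5.27%). Tested transcripts at or above the median level had median values of 7.32% in knockdown and 7.13% in scrambled libraries. SORCS2 (15.1%), PCNP (10.5%) and CNOT11 (9.91%) in knockdown and CNOT11 (11.6%) and CLIC4 (9.38%) in scrambled libraries were above these values. The other members were below them. The members were picked among called falls with groups that did not overlap, which favours a small spread. Knockdown replicate 1 was the highest of its group for 6 of the 8 members and knockdown replicate 3 the lowest for 5, with median levels of 105% and 96.0% of the group mean. No scrambled library was highest or lowest for more than 4.

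The most alike patterns were looked for by the root mean square distance between log2 profiles over the 6 libraries, each centred on its own mean. EEF2K and S100P were closest to each other (0.0753), EEF2K and PCNP next (0.0853), and EPB41L4B and PCNP were farthest apart (0.452). Among all abundant tested transcripts, CTGF was the nearest to SORCS2 (0.0871) and CLIC4 (0.125), and B4GALNT4 the nearest to CNOT11 (0.0952) and PCNP (0.0845). RNF157 was nearest to S100P (0.111), and EPB41L4B to SORCS2 (0.187) and CTGF (0.188). The measure rests on 6 libraries and is dominated by the step between the groups, so it mainly orders transcripts by the size of that step.

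Of 165 genes in lists of relatives and partners of the members, 75 were tested. Of the 75, 25 fell (33.3%, against 27.4% of all 8600 tested transcripts) and 11 rose (14.7%, against 24.5%). Their median log2 change was -0.17. When libraries were scaled to equal totals, which raised the median of all tested transcripts by 0.17, 20 fell and 21 rose. Over all genes, 2355 transcripts fell and 2105 rose (51.9% in either direction), and 1699 fell and 2967 rose with equal totals.

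Genes of apical polarity and the actomyosin belt, where EPB41L4B acts, went both ways. PRKCI, the atypical protein kinase C of the apical PAR complex, had normalized counts of 585, 531 and 558 in knockdown and 1762, 1665.5 and 1951 in scrambled libraries. Each knockdown library was far below each scrambled one, and the log2 change of -1.68 passed (SE 0.09, limma adjusted p = 2.07e-08). Of 9 tested genes of apical polarity and actomyosin 4 fell (44.4%, against 27.4% of all tested transcripts) and 1 rose (11.1%, against 24.5%). Their median log2 change was -0.19. With equal totals 2 fell and 2 rose, where 1699 of all 8600 tested transcripts fell and 2967 rose. With quantile normalization 3 fell and 2 rose, where 2132 of the 8600 fell and 2292 rose. The others that fell were PRKCZ (-0.81, adjusted p = 0.0119), its partner PARD6B (-0.42, adjusted p = 0.00402) and the scaffold PATJ (-0.27), and ROCK2, a kinase that acts on actomyosin, rose (0.31, adjusted p = 0.0101). PARD6B did not pass with equal totals (-0.24, adjusted p = 0.0647).

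Fewer members of its own protein family were measured. Of 5 tested genes of the band 4.1 and FERM family, FRMD4B had 150 ± 13.7 against 219 ± 28.5 normalized counts (log2 change -0.53, limma adjusted p = 0.00641) and FRMD4A 41.1 ± 7.53 against 70.8 ± 6.69 (-0.78, adjusted p = 0.00824). Both fell (40% of the 5, against 27.4% of all tested transcripts), and none rose. EPB41L2 (0.41, adjusted p = 0.106), EPB41L1 (0.52, adjusted p = 0.142) and EPB41L4A (-0.33, adjusted p = 0.331) did not pass. EPB41L2 passed as higher without knockdown replicate 1 (0.57, adjusted p = 0.0422) and with equal totals (0.59, adjusted p = 0.0290).

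None of the 5 tested genes of the VPS10 receptors and neurotrophins passed, against 51.9% of all tested transcripts. SORCS2 itself had a log2 change of -2.83. SORT1, the founding receptor, had 49.9, 47.5 and 34.0 normalized counts in knockdown and 84.2, 38.1 and 86.3 in scrambled libraries. Scrambled replicate 2 fell among the knockdown values, and without it SORT1 passed as lower (-0.96, limma adjusted p = 0.00580), against -0.58 (adjusted p = 0.124) with all libraries. SORL1, another receptor of the family, had 2310 ± 29.3 against 2419 ± 67.7 (-0.07, adjusted p = 0.437). GRN, whose protein binds SORT1, had 0.14 (adjusted p = 0.184), TRIO, a guanine nucleotide exchange factor, 0.41 (adjusted p = 0.200), and NTF4, a neurotrophin, 0.15 (adjusted p = 0.837). GRN passed as higher without knockdown replicate 2 (0.23, adjusted p = 0.0250), with equal totals (0.31) and with quantile normalization (0.35).

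Neither tested relative of CLIC4 was called lower. CLIC2 had 102 ± 3.53 normalized counts in knockdown and 67.5 ± 10.4 in scrambled libraries and rose (log2 change 0.60, limma adjusted p = 0.0111), while CLIC3 had 137 ± 6.89 against 146 ± 19.95 (-0.08, adjusted p = 0.674). Of 11 tested genes of TGF-beta and SMAD signalling, in which CLIC4 takes part, 3 fell and 3 rose (median 0.10). That is 27.3% each way, close to the 27.4% lower and 24.5% higher over all tested transcripts. With equal totals 3 fell and 5 rose, where 1699 of all 8600 tested transcripts fell and 2967 rose. The ligand TGFB1 (-0.78, adjusted p = 1.25e-05), the repressor SKI (-0.92, adjusted p = 1.13e-05) and SMAD3 (-0.77) fell. SMURF2, a ubiquitin ligase that acts on receptors and SMADs, rose with 323 ± 58.1 against 138 ± 14.4 normalized counts (1.20, adjusted p = 2.71e-05), as did SMAD4 (0.29, adjusted p = 0.00408) and the ligand TGFB3 (0.83).

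Other S100 genes went both ways. Of 7 tested, 3 fell (42.9%, against 27.4% of all tested transcripts) and 1 rose (14.3%, against 24.5%). The median log2 change was -0.63. S100A9, known from myeloid cells and inflamed epithelia, had 23.5, 24.9 and 16.5 normalized counts in knockdown and 99.2, 140.1 and 96.6 in scrambled libraries, and fell by 2.32 on the log2 scale (SE 0.24, limma adjusted p = 5.57e-06). Every knockdown library was below every scrambled one. S100A6 fell to 291 ± 3.21 in knockdown, against 583 ± 47.2 in scrambled libraries (-0.999, adjusted p = 3.41e-06), and S100A1 to 34.5 ± 9.41 against 77.6 ± 7.11 (-1.18, adjusted p = 0.00101). S100A11 rose (0.37, adjusted p = 0.0103), and S100A10 had -0.04 and did not pass. Of the binding partners of S100P, CACYBP (0.41, adjusted p = 0.327) and IQGAP1 (0.01, adjusted p = 0.890) were tested and did not pass. CACYBP passed as higher without knockdown replicate 1 (0.79, adjusted p = 0.0441) and IQGAP1 with equal totals (0.19, adjusted p = 0.0362).

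Of 11 tested regulators of EEF2K 3 fell (27.3%, against 27.4% of all tested transcripts) and 1 rose (9.09%, against 24.5%). With equal totals 2 of the 11 fell and 4 rose, where 1699 of all 8600 tested transcripts fell and 2967 rose. RPS6KA3, which encodes a kinase of the RSK group that inhibits EEF2K, fell to 9464 ± 796 normalized counts in knockdown, against 18289 ± 755 in scrambled libraries (log2 change -0.95, limma adjusted p = 7.44e-07). PRKAA2, a catalytic subunit of AMPK, fell to 252 ± 14.1 against 339 ± 22.6 (-0.43, adjusted p = 0.00515), a call that equal totals did not give (-0.25, adjusted p = 0.0703).

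PRKACA, a catalytic subunit of protein kinase A, was the one that rose, and its groups overlapped. It had 66.5, 181 and 208 normalized counts in knockdown and 70.0, 30.3 and 101 in scrambled libraries (log2 change 1.17, SE 0.44, limma adjusted p = 0.0391). The call was lost without knockdown replicate 2 (0.96, adjusted p = 0.123), knockdown replicate 3 (0.86, adjusted p = 0.135), scrambled replicate 1 (1.28, adjusted p = 0.0502) or scrambled replicate 2 (0.68, adjusted p = 0.160), and with voom (1.10, adjusted p = 0.0590). It rests on single libraries.

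Of 9 tested translation elongation factors 6 fell (66.7%, against 27.4% of all tested transcripts) and 0 rose (against 24.5%). The median log2 change was -0.61. EEF1A2, the tissue-restricted form of EEF1A, had 55.8, 38.4 and 42.3 normalized counts in knockdown and 196, 164 and 187 in scrambled libraries and fell by 1.99 on the log2 scale (SE 0.18, limma adjusted p = 1.88e-06). EEF2, the substrate of EEF2K, fell to 102047 ± 8601 in knockdown, against 139245 ± 11706 in scrambled libraries (-0.45, adjusted p = 0.00186). EEF1A1 (-0.43, adjusted p = 0.00176), EEF1G (-0.52, adjusted p = 0.000137), EIF5A2 (-0.62) and EEF1E1 (-0.64) also fell. With quantile normalization 4 of the 9 fell and 1 rose, and with equal totals 5 fell and 1 rose. Over all 8600 tested transcripts these scalings gave 2132 falls and 2292 rises, and 1699 falls and 2967 rises. EEF2 and EEF1A1 had a log2 change of 0 with quantile normalization. That scaling gives a transcript with the same rank in every library the same value in each. For transcripts this abundant, a change of 0 can follow from rank alone. EEF1A1 has many processed copies, and its counts are uncertain where reads were shared among them.

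Of the partners of CNOT11 in the CCR4-NOT complex 1 of 5 tested genes (20%) passed on its main row, against 51.9% of all tested transcripts. TNKS1BP1, an associated scaffold protein, fell to 1447.5 ± 132 normalized counts in knockdown, against 2391 ± 347 in scrambled libraries (log2 change -0.72, limma adjusted p = 0.000100). CNOT6, a deadenylase, had -0.18 (adjusted p = 0.0849), CNOT8 -0.71 at low counts (adjusted p = 0.173) and CNOT3 -0.05 (adjusted p = 0.814), and none of these passed. CNOT7, a deadenylase, had 463 ± 60.8 against 559.9 ± 57.0 on its main row (-0.28, adjusted p = 0.0602). That row passed as lower without knockdown replicate 2 (-0.37, adjusted p = 0.0204) and without scrambled replicate 1 (-0.35, adjusted p = 0.0354), and the minor CNOT7 row NM_054026 fell with all libraries, with 38.6 ± 12.5 against 85.1 ± 10.01 (-1.17, adjusted p = 0.00180). The other subunits in the list were not tested.

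Genes that recruit deadenylases or act with them went both ways. Of 8 tested 3 fell (37.5%, against 27.4% of all tested transcripts) and 4 rose (50%, against 24.5%), with a median of 0.12. With equal totals 2 fell and 4 rose, where 1699 of all 8600 tested transcripts fell and 2967 rose. PABPC1, the poly(A)-binding protein, fell to 19630 ± 864 normalized counts in knockdown, against 32012 ± 2906 in scrambled libraries (log2 change -0.70, limma adjusted p = 1.61e-05), and ZFP36L2 (-0.50) and ZFP36 (-0.38), which bind AU-rich elements, also fell. TNRC6A, which links Argonaute to the deadenylases, rose with 1349.97 ± 72.5 against 887 ± 18.9 (0.60, adjusted p = 3.49e-05). TOB2 (0.41, adjusted p = 0.000362) and BTG2 (0.39, adjusted p = 0.00200), which are antiproliferative adaptors of the complex, and PAN3 (0.32) rose as well. For RNF157 only its antisense transcript was tested among the listed relatives and partners, and for PCNP neither UHRF1 nor UHRF2 was tested.

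**Figure D3:**
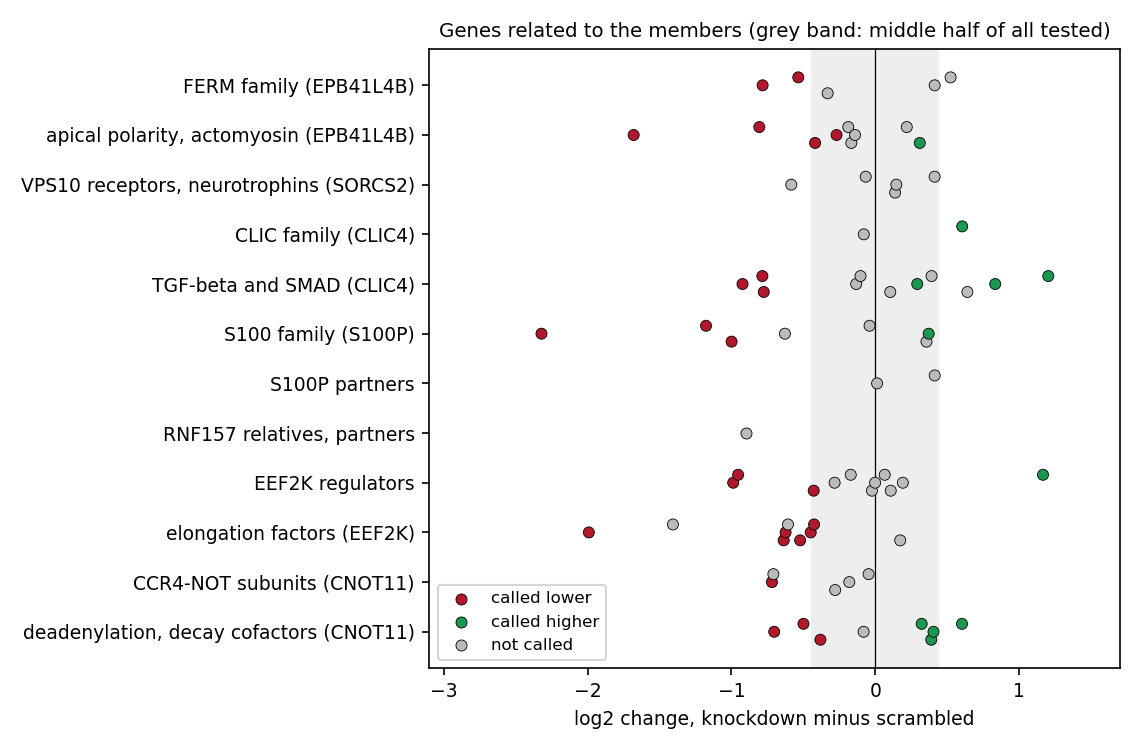
Log2 change (knockdown minus scrambled) of each tested relative or partner of the members, by list, coloured by its limma call, with the middle range of all tested transcripts (-0.44 to 0.43) shaded in grey. Elongation factors show 6 falls and 0 rises among 9 genes, and TGF-beta genes 3 falls and 3 rises among 11. Over all tested transcripts 27.4% fell and 24.5% rose.

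Genes next to the members on the chromosomes were described as a feature that the choice did not use. Of 54 tested genes whose start lay within 500 kb of a member's start, 23 fell (42.6%, against 27.4% of all tested transcripts) and 9 rose (16.7%, against 24.5%), with a median log2 change of -0.21. Within 200 kb there were 26 genes, of which 10 fell (38.5%) and 6 rose (23.1%), and within 1000 kb 85 genes, of which 30 fell (35.3%) and 16 rose (18.8%). S100P and SORCS2, which lie within 500 kb of each other, are not counted among these neighbours. None of the 54 fell by as much as the member beside it, but the members were picked for large falls, so this follows largely from the choice. With equal totals 16 of the 54 fell and 13 rose, where 1699 of all 8600 tested transcripts fell and 2967 rose. With quantile normalization 18 of the 54 fell and 10 rose, where 2132 of the 8600 fell and 2292 rose.

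PSAPL1, a relative of the prosaposin gene, is a single-exon gene in intron 2 of SORCS2 on the opposite strand, at chr4:7430294-7434973, and shares no exon base with it. It had 13.7, 10.2 and 5.16 normalized counts in knockdown and 68.4, 41.5 and 61.0 in scrambled libraries. All knockdown libraries were below all scrambled ones, and the log2 change was -2.50 (SE 0.36, limma adjusted p = 9.94e-05), beside -2.83 for SORCS2. With no strand setting stated, reads of PSAPL1 and of unspliced SORCS2 RNA cannot be told apart.

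S100P and SORCS2 start 499 kb apart, and of the 6 tested genes between them 4 rose and 2 fell. Over all tested transcripts 24.5% rose and 27.4% fell. The mitochondrial co-chaperone GRPEL1 fell to 591 ± 32.5 normalized counts in knockdown, against 1329 ± 52.6 in scrambled libraries (log2 change -1.17, limma adjusted p = 2.22e-07), the deepest of the 6. MRFAP1L1 (0.28, adjusted p = 0.00603), BLOC1S4 (0.40, adjusted p = 0.00408), CCDC96 (1.58, adjusted p = 0.000254) and LINC02447 (1.20, adjusted p = 0.00341) rose. TADA2B, an adaptor of histone acetyltransferases, fell with overlapping groups (-0.27, adjusted p = 0.0338). Its call was lost without knockdown replicate 1 (-0.25, adjusted p = 0.102), knockdown replicate 2 (-0.22, adjusted p = 0.108), scrambled replicate 1 (-0.21, adjusted p = 0.122) or scrambled replicate 3 (-0.25, adjusted p = 0.105), and with equal totals (-0.10) and quantile normalization (-0.18). On the other side of S100P, upstream of its start, LOC93622 fell to 408 ± 18.6 against 1003 ± 68.0 (-1.30, adjusted p = 1.98e-07).

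Near CLIC4 2 of 3 tested neighbours fell (66.7%, against 27.4% of all tested transcripts) and 0 rose (against 24.5%). The third, LOC100506985, did not pass (log2 change 0.25, limma adjusted p = 0.308). NCMAP, a myelin protein gene, had 22.5, 22.6 and 18.6 normalized counts in knockdown and 95.0, 87.4 and 83.5 in scrambled libraries (log2 change -2.02, limma adjusted p = 7.01e-06). NIPAL3, of a family of magnesium transporters, fell to 262 ± 32.9 against 644 ± 33.2 (-1.30, adjusted p = 1.06e-06). Around RNF157 9 of 21 tested neighbours fell (42.9%, against 27.4% of all tested transcripts) and 1 rose (4.76%, against 24.5%). There UBALD2 at 24.8 kb fell to 634 ± 41.1 against 1330 ± 187 (-1.06, adjusted p = 3.98e-06). CYGB, the haem protein cytoglobin, fell to 57.1 ± 4.24 against 146 ± 19.8 (-1.33, adjusted p = 3.23e-05).

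Around CNOT11 3 of 6 tested neighbours fell (50%, against 27.4% of all tested transcripts) and 1 rose (16.7%, against 24.5%). CREG2 had 9.78, 10.2 and 24.8 normalized counts in knockdown and 51.7, 47.1 and 59.1 in scrambled libraries and fell by 1.87 on the log2 scale (limma adjusted p = 0.000648), and the clock transcription factor NPAS2 fell by 0.95 (adjusted p = 4.81e-06). Around EEF2K 2 of 7 fell (28.6%) and 1 rose (14.3%). MOSMO, which acts on Hedgehog signalling, fell by 0.92 (adjusted p = 0.000550), while the pseudogene RRN3P3, whose reads cannot be separated surely from those of its parent gene, rose by 1.46 (adjusted p = 0.000573). Around PCNP 2 of 6 fell (33.3%) and 1 rose (16.7%). Those that fell were the ribosomal protein gene RPL24 (-0.53, adjusted p = 0.000106) and the zinc finger gene ZBTB11 (-0.66, adjusted p = 0.000287).

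Around EPB41L4B 1 of 3 tested neighbours rose and 1 fell (33.3% each, against 24.5% and 27.4% of all tested transcripts). The gene that rose was TMEM245, with a log2 change of 0.37 (limma adjusted p = 0.000698).

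**Figure D4:**
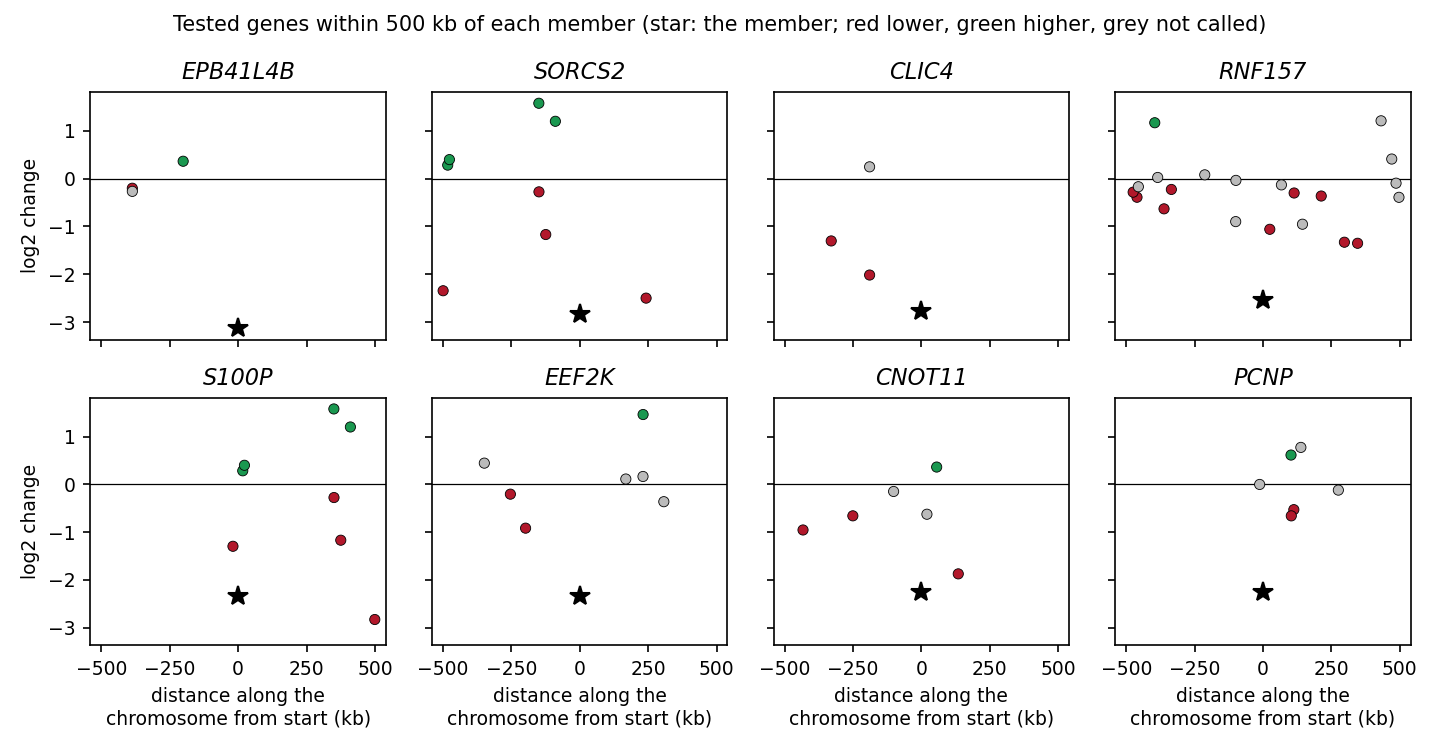
Log2 change (knockdown minus scrambled) of tested genes against distance along the chromosome from the start of each member (kb), 1 panel per member, with the member at 0 and S100P and SORCS2 in each other's panel. Members lie between -3.13 and -2.24, and apart from SORCS2 in the panel of S100P no point lies below the member of its own panel. The choice of members by large falls favours this. The genes between S100P and SORCS2 hold 4 rises and 2 falls, where 24.5% of all tested transcripts rose and 27.4% fell.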

How the data were processed

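RNA from 3 ABL1 knockdown and 3 scrambled libraries of Huh7 cells was sequenced, and each library was placed in its group by its title. Per the submitters' processing notes, HISAT2 2.0.4, HTSeq 0.6.1 and build hg38 were used (their roles are not listed). The sources used here state no annotation, strand setting, row filter or treatment of multi-mapped reads. The deposited values are a signal that the authors computed, 1 per transcript and library: its square, divided by a constant of the library and less 0.375, was a whole read count (tolerance 0.05) in 100% of rows of each library. Totals were 6651413 to 10487862 reads. The normalized count is this count times the constant, taken relative to the other libraries, so it keeps the authors' scale.

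The 8600 transcripts whose mean reached 10 normalized counts were tested (1591 were left out) with limma 3.58.1 (trend) in R 4.3.3 (two-sided) using log2(normalized count + 1). P-values were adjusted by Benjamini-Hochberg over all 8600, and the threshold was 0.05. The log2 change is knockdown minus scrambled on that scale, which understates changes of low transcripts. Where a gene had several rows, lists used the most abundant tested one. RefSeq identifiers matched 97.8% of rows, and GENCODE 29 transcripts gave positions and lengths for 8142 tested rows. Promoters came from RefSeq (GRCh38.p14).

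The members and gene lists were chosen with earlier results of these data known. Named were the 8 members, ABL1, every tested gene of lists with up to 6, otherwise up to 4 called genes by smallest p, up to 2 called neighbours per member, the genes between S100P and SORCS2, the 2 most alike transcripts and the falls ranked beside the members. Further called genes of the polarity, TGF-beta, elongation and deadenylation lists, S100A10 and the second CNOT7 row were added after their values were seen. A few items are not reported here. Within a group, chi-square per degree of freedom between libraries was 5.95 to 10.7, so none was a duplicate. Alternatives changed the pseudocount, filter, scaling, variance model, distance and motif strand, added a replicate block or left out each library. The fit was tested on simulated data.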

Additional observations from a re-analysis of the deposited data

How the results depend on the processing

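Each member kept its direction in all 15 alternatives that give a log2 value, from -3.16 to -2.96 for EPB41L4B and from -2.30 to -2.07 for PCNP, and none reversed. Of 963 values of 65 other named genes, 918 kept direction and call, 22 lost the call, 12 gained it and 11 reversed. With equal totals 21 related genes rose (11 in the reported setting), since that scaling shifts all transcripts upward. Of the neighbours, 5 rose with a mean of at least 50 (9 in the reported setting), where fewer genes are tested. Within 200 kb 10 fell (23 within 500 kb), and within 1000 kb 16 rose. None of the values that reversed passed the threshold. With equal totals CLIC3 had 0.0931, CNOT3 0.127 and SORL1 0.108, and with quantile normalization CNOT3 had 0.0239 and SORL1 0.0243. Without single libraries CLIC3 ran from -0.159 to 0.0268, CNOT3 from -0.208 to 0.0981, IQGAP1 from -0.00478 to 0.0251 and NTF4 from -0.409 to 0.655. The cause was not tested. Leaving out each library gave 2069 to 2202 falls and 1852 to 1944 rises over the whole table, 23 to 27 and 9 to 12 among related genes, and 18 to 21 and 7 to 9 among neighbours.

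Replicate numbers are shared by the groups, but same-numbered libraries did not deviate together (correlations 0.0471, 0.0765 and 0.0768), so they were not treated as pairs. Of the 3 knockdown libraries, only replicate 2 correlated best with its own number (replicate 1 with scrambled replicate 2, 0.0827, and replicate 3 with scrambled replicate 1, 0.0886). With the replicate number as a block 2520 transcripts fell and 2301 rose, against 2355 and 2105 without it, and CNOT7 passed as lower (log2 change -0.28, limma adjusted p = 0.0193).

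With 3 libraries per group, a transcript that did not pass is not shown to be equal in both groups. Levels are those of single table rows, and other transcripts of the same gene are not added to them. On the given strand alone, 3 member promoters held a GC box (5 on both strands), 1 a CCAAT box (2), and 0 the TEAD or RBPJ motif (1 each), since matches on the other strand are left out.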
